A study of Mus musculus with 12 samples.

Results

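Ccr9, Cxcr3, Ccr2, Cx3cr1 and Cxcr4 encode 5 chemokine receptors of dendritic cell (DC) precursors, and they were chosen by name from the 21754 genes of the bulk count table, through their Ensembl identifiers. All 5 were counted in all 12 libraries and passed the filter on low counts, so that no member is missing from the tests below. The 12 libraries held 4 sorted populations, 3 libraries each, of marrow cells from C57BL/6 mice (inbred, with no transgene or treatment given). All 4 were lineage-negative Flt3+ CD11c+ cells. Pre-cDCs, the precursors of conventional DCs (cDCs), were sorted as Siglec-H-negative and B220-negative cells. The lo-lo precursors were Siglec-H+ CCR9lo B220lo, the lo-hi precursors were Siglec-H+ CCR9lo B220hi, and the plasmacytoid DCs (pDCs) were Siglec-H+ CCR9hi B220hi. Adult mice of both sexes were used in the study, which speaks of 3 individual mice for these libraries and, in its sorting methods, of marrow pooled from several animals.

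Chemokine receptors are G protein-coupled receptors on the cell surface. When a chemokine binds, the receptor activates an inhibitory G protein, and the cell moves up the gradient of the ligand, until receptor kinases and arrestins switch the receptor off. In bone marrow, CXCR4 and its ligand CXCL12 hold immature cells in the marrow, whereas CCR2 and CX3CR1 are best known from monocytes and DC precursors that leave for the blood and tissues. CCR9 and CXCR3 are known from pDCs, which they can guide to the gut and to inflamed tissue.

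The wells were assigned to populations as follows, and every direction given for a population rests on this assignment. The deposited labels name 3 successive wells per population. The published source data of a heatmap of 28 transcription factors name the same 12 libraries in another order. For each of its 12 samples, 1 well ordered all 378 pairs of these genes the same way (tied counts not counted as another order), and the next best well differed in 7 pairs or more. By this match, wells A1, A5 and A9 were pre-cDCs, A2, A6 and A10 lo-lo precursors, A3, A7 and A11 lo-hi precursors, and A4, A8 and A12 pDCs, with replicates 1, 2 and 3 in this order. None of the 5 receptor genes took part in the match. The label names the same population in 4 wells and another in 8; the 4 are A1 for pre-cDCs, A6 for lo-lo precursors, A7 for lo-hi precursors and A12 for pDCs. The populations below are those of the match, not of the labels, and the values by label are given beside them.

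Of the sort marker genes, Siglech and Ccr9 followed the matched populations without overlap, while Ptprc and H2-Aa overlapped between pre-cDCs and lo-lo precursors. Ptprc and Sirpa, also on that list, overlapped between lo-hi precursors and pDCs. Siglech, which encodes the marker that separates pre-cDCs from the other 3 gates, ranged from 206.1 to 442.8 CPM (counts per 1e+06 counts of a library, scaled by TMM, a factor that corrects for library composition) in pre-cDCs and from 2537 to 2992 CPM in pDCs. Ptprc encodes CD45, of which B220 is a form, and counts of the gene do not separate that form from others. Ptprc had 101.0 to 172.1 CPM in pre-cDCs and 136.4 to 185.0 CPM in lo-lo precursors. These counts therefore do not check the B220 gate. Csf1r, a receptor gene of the cDC and monocyte lineage and no sort marker, ranged from 67.4 to 106.7 CPM in pre-cDCs and from 6.81 to 8.21 CPM in pDCs. Its list of pre-cDC and cDC genes was mixed. Zbtb46 and Cd209a were also lower in pDCs, but Sirpa (60.5 to 77 against 133.6 to 138.1 CPM) and Clec9a (38.4 to 39.9 against 49.4 to 64.2 CPM) were higher there. Total counts per library lay between 1801463 and 5995971. Genes of other blood cells were counted in every population: the 6 neutrophil genes summed to 3147 to 20227 CPM and the 5 erythroid genes to 4681 to 18418 CPM, while T cell and NK cell genes stayed at or below 6.44 CPM in sum. The 4 basophil and mast cell genes summed to 109.4 to 828.0 CPM in pre-cDCs and to at most 197.0 CPM elsewhere. Of these 4 genes, 0 differed among the populations at an adjusted p under 0.01, and of 5 B cell genes 1 did, beside 19.9% of all genes. Y-linked genes were high in all 4 libraries of replicate 3, at 68.6 to 154.0 CPM in sum against at most 7.93 CPM in replicates 1 and 2, and Xist was low there, so replicate number and sex of the mice cannot be told apart.

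The promoters of 3 of the genes are shown, of which Ccr9 and Cxcr3 rose and Cx3cr1 fell from pre-cDCs to pDCs, because these windows held the motifs searched. Each has 300 bases around the RefSeq start on GRCm38.p6, 5′ to 3′ on the strand of the gene. Capitals mark matches on either strand to CAGGTG, the E-box that E proteins such as E2-2 of pDCs can bind, to GAGGAA, the core of PU.1 sites, or to TGTGGT, the core of Runx sites. The Ccr9 window is chr9:123766961-123767260 on the plus strand, the Cxcr3 window chrX:101734098-101734397 on the minus strand and the Cx3cr1 window chr9:120068247-120068546 on the minus strand.
Ccr9: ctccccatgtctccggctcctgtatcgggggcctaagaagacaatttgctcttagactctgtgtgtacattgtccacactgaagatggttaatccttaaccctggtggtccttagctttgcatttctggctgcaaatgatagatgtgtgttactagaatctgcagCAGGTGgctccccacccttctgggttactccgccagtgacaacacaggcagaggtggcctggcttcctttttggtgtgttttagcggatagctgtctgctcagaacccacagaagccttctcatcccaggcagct
Cxcr3: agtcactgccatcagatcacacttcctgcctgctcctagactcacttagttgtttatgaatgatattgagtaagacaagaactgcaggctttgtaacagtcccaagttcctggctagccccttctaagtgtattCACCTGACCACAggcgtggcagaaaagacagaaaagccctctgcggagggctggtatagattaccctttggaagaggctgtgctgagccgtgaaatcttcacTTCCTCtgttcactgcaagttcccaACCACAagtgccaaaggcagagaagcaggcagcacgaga
Cx3cr1: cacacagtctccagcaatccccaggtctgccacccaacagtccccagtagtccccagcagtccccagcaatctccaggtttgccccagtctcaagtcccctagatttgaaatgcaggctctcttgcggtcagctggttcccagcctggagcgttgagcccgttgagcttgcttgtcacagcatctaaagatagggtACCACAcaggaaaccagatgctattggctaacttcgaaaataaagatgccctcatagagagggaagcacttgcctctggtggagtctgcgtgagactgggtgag
The Ccr9 window held 1 CAGGTG, starting at position -85, where the first transcribed base is 1 and the base before it -1. In the Cxcr3 window CAGGTG was found at -116, directly followed by TGTGGT at -110 without overlap, together with GAGGAA at -14 and a second TGTGGT at 12. The Cx3cr1 window held 1 TGTGGT at -54. Of 32851 mouse promoters of this length, 20.2% held CAGGTG, 28.3% GAGGAA and 16.8% TGTGGT. The Ccr2 and Cxcr4 windows held none of the 3 motifs. These matches are letters in a window, and binding was not measured.

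Ccr9 is the receptor for CCL25, the chemokine of thymus and small intestine. The gene lies on chromosome 9 (GENCODE vM21, GRCm38, 123678439 to 123784330, plus strand, ENSMUSG00000029530). CCR9 protein was itself a gate of the sort, so the level in pDCs checks the sort and is no finding. In the pre-cDC libraries Ccr9 had 32.8, 44.6 and 21.6 CPM in replicates 1, 2 and 3. The lo-lo libraries had 65.9, 69.3 and 62.8 CPM. The lo-hi libraries had 251.3, 220.9 and 219.3 CPM. The 4 populations did not overlap, since the pDC libraries, with 464.6, 396.7 and 520.2 CPM, stood above all others. Both kinds of precursors were sorted within the CCR9lo gate and split by B220, and whether their CCR9 protein differed inside that gate was not tested. Lo-hi precursors had 3.5-fold more Ccr9 RNA than lo-lo precursors (log2 fold change 1.81, SE 0.18, adjusted p = 1.11e-06, higher in 3 of 3 replicates). Lo-lo precursors exceeded pre-cDCs, which were not gated on CCR9, by 1.02 on the log2 scale (SE 0.19, adjusted p = 0.0013). That call was lost without pre-cDC replicate 1 (adjusted p = 0.0134) or without pre-cDC replicate 3 (adjusted p = 0.0123). The step from lo-hi precursors to pDCs, which the gate itself sets, was 1.0 (SE 0.18), with an adjusted p of 0.00139 in the fit of all libraries, 0.0181 without lo-hi replicate 2 and 0.0238 without lo-hi replicate 3, and the difference between pDCs and pre-cDCs was 3.82 (SE 0.20). Ccr9 overlaps genes on the opposite strand, of which AC165425.1 had 666 and Lztfl1 354 counts over all libraries, and whether strand was used in counting is not given in the sources used here.

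**Figure D1:**
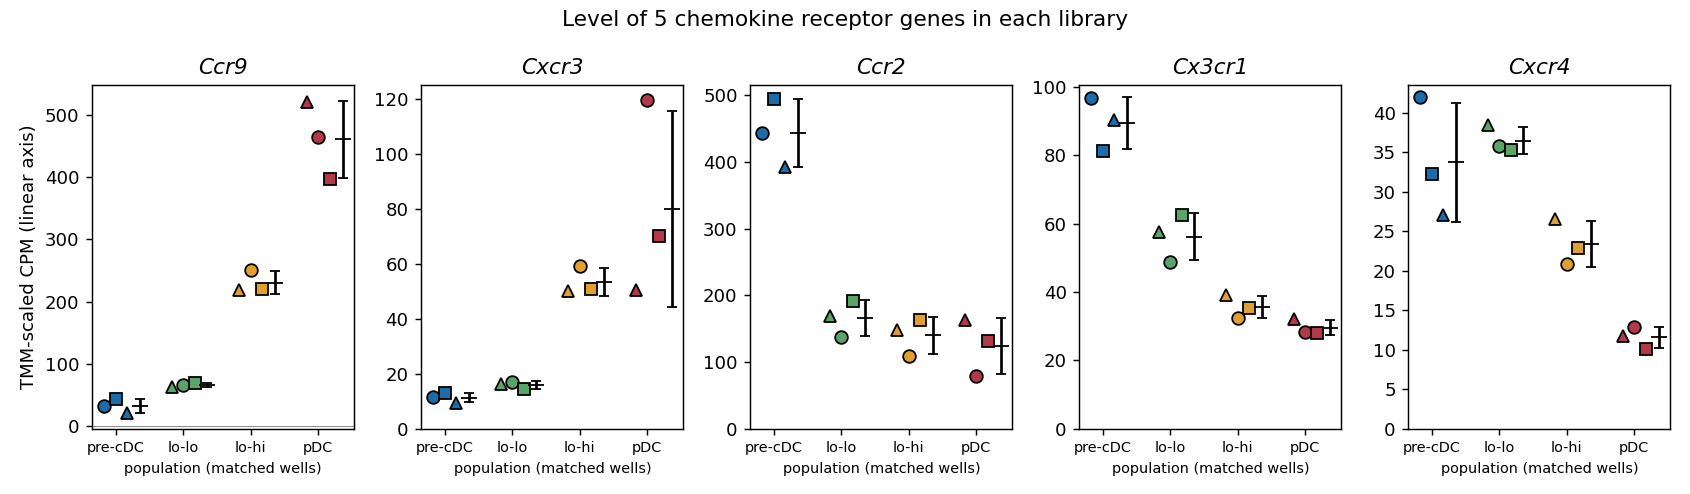
TMM-scaled CPM (vertical axes, linear) of the 5 receptor genes in the 12 libraries, by population of the matched wells (horizontal axes). Circles, squares and triangles are replicates 1, 2 and 3, and the horizontal and vertical black lines are the mean and SD of 3 libraries. Ccr9 and Cxcr3 were lowest in pre-cDCs, at means of 33 and 11.3 CPM, while Ccr2 and Cx3cr1 were highest there, at 443.8 and 89.4 CPM.

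Cxcr3, the receptor for the interferon-induced chemokines CXCL9, CXCL10 and CXCL11, was low in pre-cDCs and lo-lo precursors and high in lo-hi precursors and pDCs. The gene lies on the X chromosome (101731535 to 101734269, minus strand, ENSMUSG00000050232). The pre-cDC libraries had 11.4, 12.9 and 9.46 CPM and the lo-lo libraries 17.1, 14.3 and 16.3 CPM. The lo-hi libraries had 59.2, 50.7 and 50.2 CPM. These 3 populations did not overlap, and the gap lay between both kinds of CCR9lo precursors. In pDCs the values spread more widely, with 119.6, 70.1 and 50.3 CPM, and the pDC library of replicate 3 fell within the range of the lo-hi libraries. Cxcr3 rose 3.36-fold from lo-lo to lo-hi precursors (log2 fold change 1.75, SE 0.25, adjusted p = 4.91e-05, higher in 3 of 3 replicates). The differences from pre-cDCs to lo-lo precursors (0.52, SE 0.28, adjusted p = 0.362) and from lo-hi precursors to pDCs (0.60, SE 0.22, adjusted p = 0.225) did not pass the cutoff of 0.01. The pDCs had 7.28-fold more Cxcr3 RNA than pre-cDCs (2.86, SE 0.26, adjusted p = 8.28e-09). The difference between pDCs and lo-hi precursors depended on single libraries: it was 0.16 without pDC replicate 1 (adjusted p = 0.792) and 0.83 without pDC replicate 3. In replicates 1 and 2 alone, a choice made after the data were seen, it was 0.76 (adjusted p = 0.0959), and the step from lo-lo to lo-hi precursors was 1.8 (adjusted p = 2.97e-05).

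Ccr2, the receptor for CCL2 and related chemokines through which monocytes leave the marrow, separated pre-cDCs from the other populations. The gene lies on chromosome 9 (124101950 to 124113557, plus strand, ENSMUSG00000049103). How reads shared with related receptor genes were counted is not given in the sources used here. The pre-cDC libraries had 443.8, 494.8 and 392.9 CPM. The lo-lo libraries had 137.6, 191.8 and 169.5 CPM, the lo-hi libraries 109.3, 163.0 and 147.7 CPM and the pDC libraries 79.4, 131.4 and 162.7 CPM. Every pre-cDC library lay above all others, whereas the ranges of the Siglec-H+ populations overlapped. Ccr2 fell by 1.42 on the log2 scale from pre-cDCs to lo-lo precursors (SE 0.21, adjusted p = 0.000169, lower in 3 of 3 replicates), and this call was kept when any single library was left out. No further step passed: the log2 fold change was -0.26 from lo-lo to lo-hi precursors (SE 0.21, adjusted p = 0.587) and -0.17 from lo-hi precursors to pDCs (SE 0.21, adjusted p = 0.874), and the latter was 0.08 without pDC replicate 1. Between pDCs and lo-lo precursors the difference was -0.43 (SE 0.21, adjusted p = 0.171).

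Cx3cr1, the receptor for fractalkine, declined in smaller steps. Its gene model on chromosome 9 (119901616 to 120069879, minus strand, ENSMUSG00000052336) overlaps Wdr48 on the opposite strand, which had 401 counts in all. On its own strand the model overlaps Gorasp1, Csrnp1 and Xirp1, which had no row of counts. Whether reads of these genes were counted as Cx3cr1 was not tested. The pre-cDC libraries had 96.6, 81.3 and 90.2 CPM and the lo-lo libraries 48.7, 62.5 and 57.4 CPM. The lo-hi libraries had 32.5, 35.2 and 39.1 CPM and the pDC libraries 28.4, 28.1 and 32.1 CPM. No 2 populations overlapped in these values, although lo-hi precursors and pDCs nearly touched. The log2 fold change was -0.67 both from pre-cDCs to lo-lo precursors (SE 0.16, adjusted p = 0.00753) and from lo-lo to lo-hi precursors (SE 0.16, adjusted p = 0.00878), lower in 3 of 3 replicates each time. Both calls lie close to the cutoff. The first was lost in 8 of 12 fits that left out 1 library, with adjusted p up to 0.085 without lo-lo replicate 1, and the second in 6 of 12, with adjusted p up to 0.0765 without lo-hi replicate 1. The larger difference between pDCs and pre-cDCs, a fall of 1.61 (SE 0.16, adjusted p = 1.90e-08), was kept in all 12. Lo-hi precursors and pDCs differed by -0.26 (SE 0.17, adjusted p = 0.631).

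Genes of monocytes moved together with Ccr2 and Cx3cr1. Of the 6 monocyte genes examined, 4 passed the test over the 4 populations, beside 19.9% of all genes tested. F13a1 had 87.3 to 108.1 CPM in pre-cDCs against 20.1 to 23.2 CPM in lo-lo precursors and 8.34 to 10.4 CPM in pDCs, and Lyz2 had 1840 to 1930 CPM in pre-cDCs against 518.9 to 723.3 CPM in pDCs. The summed level of the list was 3989 to 4370 CPM in pre-cDCs, 2571 to 3448 CPM in lo-lo precursors, 3344 to 4325 CPM in lo-hi precursors and 2910 to 3960 CPM in pDCs. Ly6c2 was abundant in all populations, at 1888 CPM or more. The part of monocytes in the levels of both receptors was not tested. In sorted bulk populations, fewer cells that express a gene and less of its RNA per cell cannot be told apart.

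Cxcr4, the receptor for CXCL12, was the one member whose ranges in pre-cDCs and lo-lo precursors overlapped. Cxcr3 did not overlap there but missed the cutoff as well (adjusted p = 0.362). Cxcr4 was lowest in pDCs, as were Ccr2 and Cx3cr1 by their means. The gene lies on chromosome 1 (128588199 to 128592293, minus strand, ENSMUSG00000045382). The pre-cDC libraries had 41.9, 32.2 and 27 CPM and the lo-lo libraries 35.7, 35.2 and 38.4 CPM, and these ranges overlapped. The lo-hi libraries had 20.8, 22.8 and 26.5 CPM, below all libraries of pre-cDCs and lo-lo precursors, and the pDC libraries had only 12.8, 10.1 and 11.7 CPM. Cxcr4 was lower in pDCs than in lo-hi precursors by 0.98 on the log2 scale in the fit (log2 fold change -0.98, SE 0.21, adjusted p = 0.00859, lower in 3 of 3 replicates). This call, from libraries with as few as 27 Cxcr4 counts, was lost in 8 of 12 fits without 1 library, with adjusted p up to 0.0716 without pDC replicate 2. The pDCs differed from pre-cDCs by -1.54 (SE 0.20, adjusted p = 9.36e-07) and from lo-lo precursors by -1.64 (SE 0.19, adjusted p = 4.43e-07), and both calls were kept without any 1 library. The difference between lo-hi and lo-lo precursors, -0.66 (SE 0.19, adjusted p = 0.024), missed the cutoff of 0.01 but would pass at 0.05, and it passed in the fit of only the 6 libraries compared (adjusted p = 0.00352). Pre-cDCs and lo-lo precursors differed by 0.11 (SE 0.18, adjusted p = 0.815), a sign that turned without pre-cDC replicate 3 (-0.04).

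**Figure D2:**
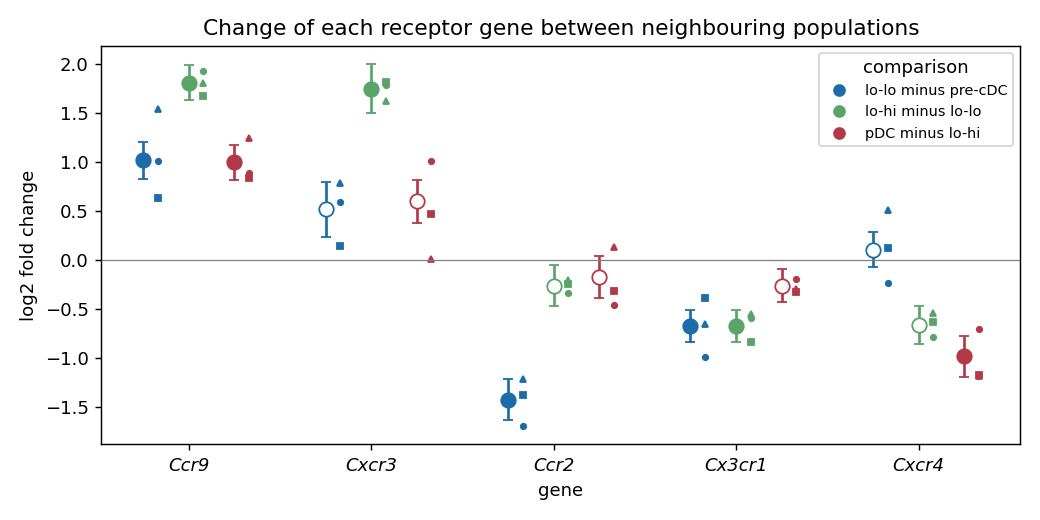
Log2 fold change (vertical axis) of each receptor gene (horizontal axis) for the 3 steps between neighbouring populations. Large circles with bars are the edgeR estimate and its SE, filled where the adjusted p was under 0.01. Small circles, squares and triangles are the log2 ratios within replicates 1, 2 and 3. Ccr9 rose at each step, by 1.02, 1.81 and 1.0, of which the last is set by the CCR9 gate of the sort and is no finding. Cxcr3 passed the cutoff at 1 step, with 1.75.

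All 5 members passed the test over the 4 populations, where 19.9% of the 15293 genes tested passed. Ccr9 is among them (adjusted p = 1.34e-12), but CCR9 was a gate of the sort, so nothing is read from its result. The adjusted p of the others ran from 4.61e-09 for Cxcr3 to 9.63e-07 for Cxcr4. From pre-cDCs to lo-lo precursors, 1 of 5 members, Ccr9, rose and 2 fell, beside 1.61% of all genes that rose and 1.55% that fell. From lo-lo to lo-hi precursors, 2 rose, Ccr9 included, and 1 fell, beside 2.33% and 2.83% of all genes. From lo-hi precursors to pDCs, 1 rose and 1 fell, beside 0.118% and 0.844%. The gene that rose there is Ccr9, whose protein was the gate between these populations, so that its count is a check of the sort and nothing is read from it. Over the whole span from pre-cDCs to pDCs all 5 passed, 2 higher and 3 lower in pDCs, beside 11.4% higher and 10.4% lower of all genes, and Ccr9, set by the CCR9hi gate, is again 1 of those higher. In pDCs against lo-lo precursors 2 were higher, Ccr9 included, and 2 lower (6.71% and 7.08% of all genes). In lo-hi precursors against pre-cDCs 2 were higher, Ccr9 included, and 2 lower (6.76% and 6.32%). These comparisons share libraries and are not independent of each other. The median log2 fold change of all genes was between 0.01 and 0.05 in every comparison. That of the 5 members, which moved in both directions, was 0.11, -0.26 and -0.17 for the 3 steps in order, -1.54 for pDCs against pre-cDCs, -0.43 for pDCs against lo-lo precursors and -0.56 for lo-hi precursors against pre-cDCs. Ccr9 and Cx3cr1 were named by the study from these same samples, and Cxcr3 was on its pathway list, so their directions are not independent evidence. For CXCR4, the study reported by flow cytometry higher surface protein where B220 was lower within the CCR9lo precursors.

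Grouped by the deposited labels, no member and no other gene passed. The test of edgeR called 0 genes over the 4 labelled groups, with 166 genes at an unadjusted p under 0.05, and the adjusted p of every member was 1 in every comparison. The labelled pDC group then had a mean of 267.4 CPM of Ccr9 with an SD of 232.5 (n = 3), although its cells were gated as CCR9hi, since one of its libraries (A10) had 62.8 CPM. In the 4 wells where label and match name the same population, the order of the levels did not depend on the choice. Ccr9 had 32.8 CPM in pre-cDCs (A1), 69.3 in lo-lo precursors (A6), 220.9 in lo-hi precursors (A7) and 520.2 in pDCs (A12). Cxcr3 had 11.4, 14.3, 50.7 and 50.3 CPM in the same wells, Cx3cr1 96.6, 62.5, 35.2 and 32.1 CPM, and Cxcr4 41.9, 35.2, 22.8 and 11.7 CPM. Ccr2 had 443.8 CPM in the pre-cDC well and 191.8, 163.0 and 162.7 CPM in the others. With 1 library per population in this subset, no test can be made there.

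**Figure D3:**
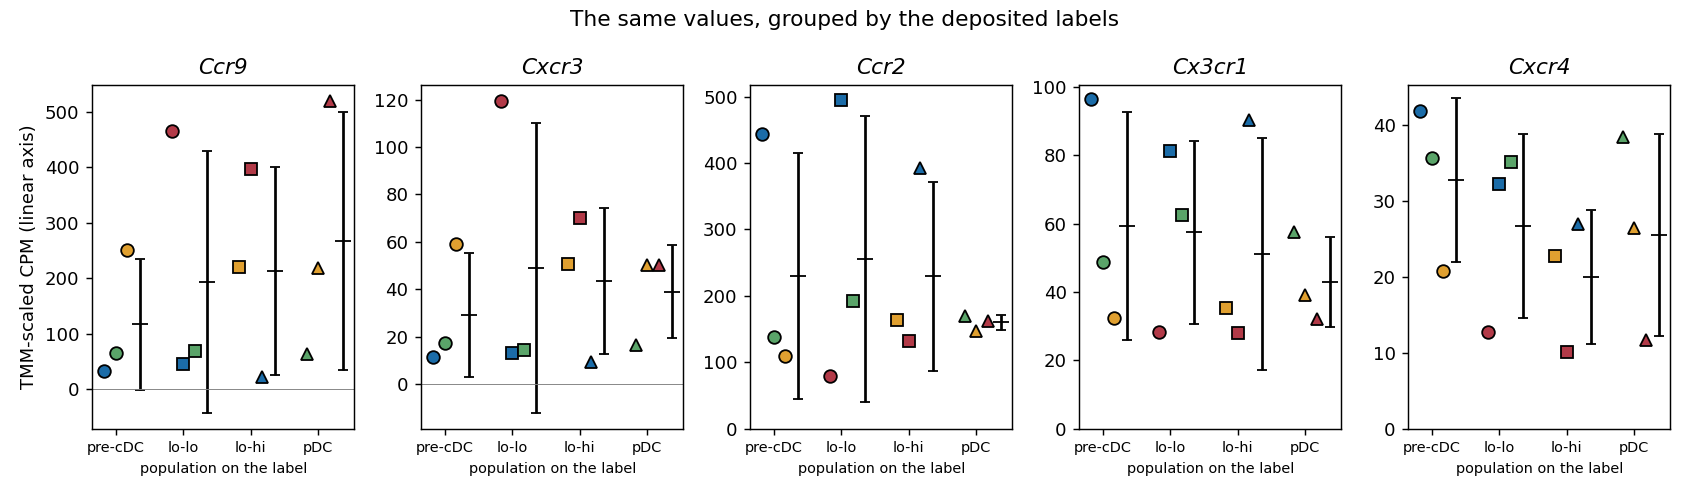
The same TMM-scaled CPM (vertical axes, linear), now by the population on the deposited label (horizontal axes), with colours for the population of the matched wells (blue pre-cDC, green lo-lo, yellow lo-hi, red pDC), shapes for its replicate numbers (circle 1, square 2, triangle 3) and black lines for the mean and SD. Each labelled group mixes colours, and for Ccr9 the labelled lo-lo group spans 44.6 to 464.6 CPM.

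Over the 12 libraries, log2 CPM of Ccr9 and Cxcr3 went together (Pearson's r 0.959, n = 12), and both ran opposite to Cx3cr1 (-0.963 and -0.949). These values describe libraries that share 4 populations and carry no test. Among 7819 genes with a mean of at least 10 CPM, those most like Ccr9 were Asph, Sema4b and Tlr7 (r 0.993, 0.993 and 0.992), the last a nucleic acid sensor of pDCs that averaged 9.71, 20.2, 56.7 and 93.5 CPM from pre-cDCs to pDCs. Most like Cxcr3 were Pld4, Pisd-ps1 and Fth1 (0.991, 0.991 and 0.987). Most like Ccr2 were Camkk2, Rab7b and S100a4 (0.969, 0.968 and 0.957), and most like Cx3cr1 were Csf1r, Lgals3 and Pid1 (0.988, 0.986 and 0.983). Among the 3 genes most like Cxcr4 were Hmmr and Lig1 (0.975 and 0.97), which serve the mitotic spindle and DNA ligation, and Lig1 averaged 111.6, 140.4, 53.4 and 17.7 CPM in the 4 populations.

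Of 20 other chemokine receptor genes, 17 had a row of counts and 12 were tested, of which 3 passed over the 4 populations, a share near the 19.9% of all genes. Of these 3, 2 lay below the level set for naming and are named after their values were seen. Ccr1 fell from 12.2 ± 1.67 CPM in pre-cDCs to 3.97 ± 0.965 CPM in lo-lo precursors (SD, n = 3; log2 fold change -1.61, adjusted p = 0.00104). Ccr6 was at 0.976 CPM in pre-cDCs and 4.97 CPM in pDCs on average (2.28, SE 0.48, adjusted p = 0.000581). Ccr7, the receptor of migrating mature DCs, averaged 3.64 to 7.55 CPM and did not pass (adjusted p = 0.0764). Ligands of the 5 receptors were hardly counted: of 10 genes, 5 were tested and 1 passed, beside 19.9% of all genes. It was Cxcl9, with at most 13 counts per library, a gene named after its values were seen. The median log2 fold change between pDCs and pre-cDCs was -0.23 for the 12 receptors and -0.14 for the 5 ligands, beside 0.05 for all genes.

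The signaling genes downstream of the receptors split in both directions. Of 37 genes for G protein subunits, receptor kinases, arrestins, regulators of G protein signaling and small GTPases with their partners, 35 were tested and 14 passed over the 4 populations, where 19.9% of all genes tested did. In pDCs against pre-cDCs 6 were higher and 9 lower, beside 11.4% and 10.4% of all genes, with a median of -0.16 for the list. Among the G protein subunits, Gnb4 rose from a mean of 24.6 to 49.1 CPM between lo-lo and lo-hi precursors (log2 fold change 1.01, SE 0.21, adjusted p = 0.00164) and Gngt2 from 25.7 to 54.1 CPM (1.07, SE 0.20, adjusted p = 0.000723). Rgs10, which speeds the shut-off of inhibitory G proteins, rose at the same step from 131.4 to 239.7 CPM (0.87, SE 0.15, adjusted p = 0.000287). At this step 3 genes of the list rose and 0 fell at an adjusted p under 0.01, beside 2.33% and 2.83% of all genes. Some genes of desensitization were lower in pDCs than in pre-cDCs, whereas the receptor kinase genes Grk2, Grk5 and Grk6 did not pass over the 4 populations (adjusted p = 0.301, 0.0707 and 0.358). Arrb1, which encodes beta-arrestin 1, had 22.5, 19.8 and 23 CPM in pre-cDCs and 8.56, 8.53 and 7.59 CPM in lo-lo precursors (-1.41, SE 0.21, adjusted p = 8.48e-05). Rgs2 fell at the same step from 308.1 to 179.8 CPM (-0.78, SE 0.16, adjusted p = 0.00276), and no other gene of the list passed there. Of all genes, 1.61% rose and 1.55% fell at that step. Arrb2 and the receptor kinase gene Grk3 were lower in pDCs than in pre-cDCs by 0.85 and 1.47 in log2 terms (fold changes -0.85 and -1.47, adjusted p = 0.000409 and 1.41e-05).

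Among the small GTPases of cell movement, near relatives differed in direction. Rac2, the form of blood cells, was higher in pDCs than in pre-cDCs (1474 ± 279.7 against 935.5 ± 63.8 CPM, log2 fold change 0.66, adjusted p = 0.000934), and Rac1 was lower (-0.75, adjusted p = 0.000454). Rap1a, which activates integrins, was higher in pDCs (0.85, adjusted p = 7.28e-05), and its relative Rap1b was lower (-0.71, adjusted p = 0.000383), as was Cdc42 (-0.90, adjusted p = 9.64e-05). Gnai2, the main inhibitory G protein subunit gene of leukocytes, averaged 632.6 to 806.7 CPM and did not pass over the 4 populations (adjusted p = 0.175). The study's own pathway list from these samples held, among others, Ccr9, Cxcr3, Ccr6, Gnb4, Gngt2, Dock2, Rac2 and Rap1a, so their higher level in pDCs is not independent evidence. None of the genes tested passed when the libraries were grouped by label.

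**Figure D4:**
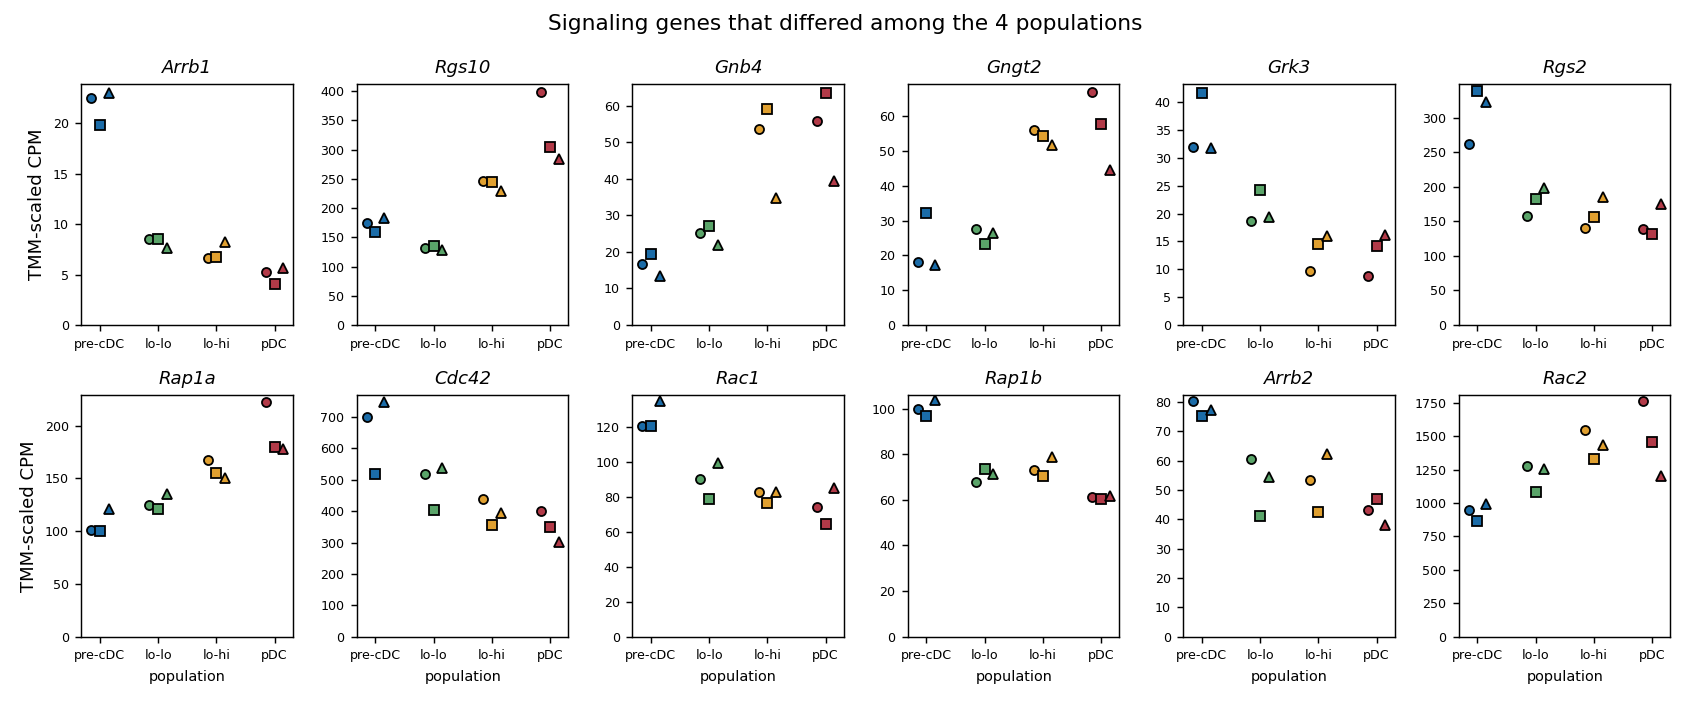
TMM-scaled CPM (vertical axes, linear, each from 0) of 12 signaling genes by population of the matched wells (horizontal axes). Circles, squares and triangles are replicates 1, 2 and 3. Gnb4 averaged 24.6 CPM in lo-lo and 49.1 CPM in lo-hi precursors, while Arrb1 had 19.8 to 23 CPM in pre-cDCs and at most 8.56 CPM elsewhere.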

How the data were processed

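RNA of 4 sorted mouse bone marrow populations was sequenced by SCRB-seq, which reads mostly 3' ends, in 12 libraries. The authors processed the reads with zUMIs and STAR 2.5.2b (version per the submitters' processing notes) on GRCm38 with Ensembl genes and deposited raw counts per gene and well, without normalization. Whether reads or molecular identifiers were counted is not given in the sources used here. Levels of different genes were not compared.

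Of 21754 identifiers, 21410 had a symbol. Libraries were grouped by the matched wells described above, and by label as an alternative. A gene was tested if its mean count reached 1 (15293 genes did and 6461 did not). One model without covariates was fitted to the 12 libraries together, using edgeR (4.0.16, under R 4.3.3), TMM and robust quasi-likelihood F tests, and p-values were adjusted over all tested genes (Benjamini-Hochberg, cutoff 0.01). DESeq2 1.42.0 was an alternative, beside a replicate block, other filters and cutoffs, thinning and leaving out each library. A floor of 3 counts corresponds to 0.5 to 1.67 CPM, for counting error only. The p-values measure the spread between libraries, which the sources do not tie to animals with certainty. Promoters are RefSeq's, gene positions GENCODE's.

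The members and gene lists were chosen with earlier results of these data known. Named from the lists were genes that passed over the 4 populations at a mean of 10 CPM or more, at most 12 a list, and for each member the 3 genes with the highest correlation. Results of a few of these genes are left out here.

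The test was tried on simulated counts. The accepted share of false calls was 5% at first and was not met when each gene kept its own estimated spread; it was raised to 10% after this was seen, and a second simulation, with the spread following its trend, was added then and met a stricter limit. False calls above the nominal 1% are therefore possible, which bears on the calls close to the cutoff.

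Replicate numbers follow the matched wells and, if the 3 mice of the study's legend are meant, mark mice. Deviations of same-numbered libraries from their group means correlated at 0.118 on average (18 pairs, lowest -0.15), against -0.0586 for other pairs. The replicate block changed 0 of 30 calls of the members.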

Additional observations from a re-analysis of the deposited data

How the results depend on the processing

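Calls of the members by the matched wells were most often kept. Of 270 fits other than by label or without 1 library, 256 kept the direction and stayed on the same side of the cutoff. This share includes comparisons without a call, since 21 of the 30 comparisons of members had one. It also includes the cutoff of 0.05, which reuses the main fit and could lose no call. Cx3cr1 lost its call between pre-cDCs and lo-lo precursors with counts thinned to the smallest total (-0.64), with only the 6 libraries compared (-0.70) and with replicates 1 and 2 alone (-0.69), and between lo-lo and lo-hi precursors when thinned (-0.52) and in replicates 1 and 2 (-0.73). Cxcr4 lost it between lo-hi precursors and pDCs when thinned (-0.86) and in replicates 1 and 2 (-0.92), and turned between pre-cDCs and lo-lo precursors in replicates 1 and 2 (-0.08). It gained the call between lo-lo and lo-hi precursors at a cutoff of 0.05 (-0.66) and in the 6 libraries (-0.68), and between lo-hi precursors and pre-cDCs at 0.05 (-0.56). Ccr9 lost it between pre-cDCs and lo-lo precursors in the 6 libraries (0.98) and in replicates 1 and 2 (0.82), and between lo-hi precursors and pDCs in the latter (0.84). Replicates 1 and 2 alone were chosen after seeing the data. The cause was not tested, beyond fewer counts or libraries in the thinned and reduced fits.

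Without 1 library at a time, log2 fold changes from pre-cDCs to lo-lo precursors ranged from 0.78 to 1.24 for Ccr9, -0.76 to -0.57 for Cx3cr1 and -0.04 to 0.31 for Cxcr4; from lo-lo to lo-hi precursors, from -0.78 to -0.59 for Cx3cr1 and -0.76 to -0.59 for Cxcr4; and from lo-hi precursors to pDCs, from 0.90 to 1.10 for Ccr9, 0.16 to 0.83 for Cxcr3, -0.41 to 0.08 for Ccr2 and -1.09 to -0.89 for Cxcr4. Genes called ranged from 280 to 662, 381 to 945 and 65 to 213 for these 3 steps. The lowest counts came without pre-cDC replicate 1 (280), lo-hi replicate 1 (381) and lo-hi replicate 3 (65).

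The 3 steps called 483, 790 and 147 genes. With the replicate block the first called 743 and the third 346, and the block changed no other count by over 1.5 times and no call of a member. Without a filter the first called 733 and the third 344. Thinned, they called 259, 483 and 88, and the first called 247 in replicates 1 and 2. The second called 1191 in the 6 libraries. At a cutoff of 0.05 they called 907, 1321 and 327, with 3332 for pDCs against lo-lo precursors (2108 at 0.01) and 3063 for lo-hi precursors against pre-cDCs (2001 at 0.01).

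By label, edgeR called 0 genes in each of the 7 tests, with or without the block (138 to 344 genes at an unadjusted p under 0.05 in the pairs without it). Members by label, and by label with the block, had these log2 fold changes. Ccr9 had 0.73 and 0.91 (lo-lo minus pre-cDC), 0.14 and 0.26 (lo-hi minus lo-lo), 0.33 and 0.07 (pDC minus lo-hi), 1.19 and 1.23 (pDC minus pre-cDC), 0.46 and 0.33 (pDC minus lo-lo), 0.87 and 1.17 (lo-hi minus pre-cDC). Ccr2 had 0.15 and 0.14 (lo-lo minus pre-cDC), -0.52 and -0.52 (pDC minus pre-cDC), -0.01 and 0.00 (lo-hi minus pre-cDC). Cxcr3 had -0.20 and -0.06 (lo-hi minus lo-lo), -0.17 and -0.10 (pDC minus lo-hi), 0.39 and 0.39 (pDC minus pre-cDC), -0.38 and -0.16 (pDC minus lo-lo), 0.56 and 0.49 (lo-hi minus pre-cDC). Cxcr4 had -0.31 and -0.25 (lo-lo minus pre-cDC), 0.38 and 0.33 (pDC minus lo-hi), -0.34 and -0.36 (pDC minus pre-cDC), -0.03 and -0.11 (pDC minus lo-lo). Cx3cr1 had -0.05 and -0.02 (lo-lo minus pre-cDC), -0.15 and -0.20 (lo-hi minus lo-lo), -0.46 and -0.45 (pDC minus pre-cDC), -0.40 and -0.44 (pDC minus lo-lo), -0.21 and -0.22 (lo-hi minus pre-cDC). Without TMM, the 20 mean levels of the members moved by less than their SD. Which assignment of wells is right was not tested beyond the match to the source data.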
